A study of Mus musculus with 4 samples.

Results

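The 39 mouse Hox genes of the Hoxa, Hoxb, Hoxc and Hoxd clusters were examined across 4 tissue sections. They are all the genes whose symbol is Hox, a cluster letter and a number, 39 of the 32285 genes in the count tables. The Hoxa cluster has 11 of them, Hoxb 10, Hoxc 9 and Hoxd 9. All came from untreated wild-type mice: 1 section at embryonic stage E13.5, 1 at E16.5, and 2 of esophagus from newborns at P0, the day of birth (P0 replicates 1 and 2). The embryo sections are titled embryonic esophagus and their tissue is given as mouse embryo; both held spots rich in neural, cartilage and heart markers, and so cover more than esophagus. The tissue was fresh frozen, cut at 8 µm and placed on Visium slides, whose barcoded spots capture RNA from the cells above them, so that every value is that of a small mixed region. The labels do not name the animals behind a section, so any spread between sections may be technical. SDs measure the spread between the 2 P0 sections. Errors and p-values of the P0 fits with section as a block measure how region differences vary between these sections, with variance information shared over all genes. The sources used here do not give which part of the embryo a section covers or how it was laid on the slide.

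Hox genes encode homeodomain transcription factors that give cells a position along the head-to-tail axis. Genes at the 3′ end of a cluster carry low paralog numbers and are known to be used up to more anterior limits, and those at the 5′ end carry high numbers and are restricted to the trunk and tail, an arrangement called collinearity. Genes with the same number in different clusters are paralogs. Pbx, Meis and Prep proteins bind DNA together with Hox proteins. Retinoic acid is known to activate genes at the 3′ end, and Polycomb and Trithorax proteins are known to keep clusters silent or active. In the foregut, Hox genes of low and middle numbers are known to take part in forming the lung, trachea and esophagus.

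Promoter windows of 4 members are shown because these genes carry the P0 results below. Hoxc4 was higher in epithelium-rich spots, Hoxd8 and Hoxa2 in muscle-rich spots, and Hoxd4, of the same cluster as Hoxd8, was close to 0. Each is 250 bases long (GRCm38.p6) and runs 5′ to 3′ on the gene's strand. The Hoxd8, Hoxd4 and Hoxa2 windows end at the start of the RefSeq gene model. The Hoxc4 window lies within its RefSeq model, chr15:103018097-103036856, and not before the start of that model. The Hoxc4 window is at chr15:103034145-103034394 and that of Hoxd8 at chr2:74704365-74704614, both on the plus strand. Hoxd4 is at chr2:74721728-74721977 on the plus strand, and Hoxa2 at chr6:52164832-52165081 on the minus strand. Capitals mark matches on either strand to the Hox-Pbx motif TGATNNAT, the Meis motif TGACAG, the retinoid receptor core motif AGGTCA or the TATA box TATAAA.
Hoxc4: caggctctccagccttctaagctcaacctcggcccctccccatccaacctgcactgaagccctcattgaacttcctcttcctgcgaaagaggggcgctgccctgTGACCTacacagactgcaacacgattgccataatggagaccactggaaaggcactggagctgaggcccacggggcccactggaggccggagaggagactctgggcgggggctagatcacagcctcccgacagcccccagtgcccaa
Hoxd8: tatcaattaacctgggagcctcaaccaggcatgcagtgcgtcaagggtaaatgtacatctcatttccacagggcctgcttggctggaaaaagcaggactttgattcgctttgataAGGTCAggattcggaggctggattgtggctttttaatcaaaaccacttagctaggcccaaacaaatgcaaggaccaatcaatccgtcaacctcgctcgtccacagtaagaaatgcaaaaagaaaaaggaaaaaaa
Hoxd4: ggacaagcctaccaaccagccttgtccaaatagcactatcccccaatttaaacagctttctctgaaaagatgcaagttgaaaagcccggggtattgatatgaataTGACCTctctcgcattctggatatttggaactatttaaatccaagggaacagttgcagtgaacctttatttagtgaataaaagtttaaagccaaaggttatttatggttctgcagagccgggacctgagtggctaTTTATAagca
Hoxa2: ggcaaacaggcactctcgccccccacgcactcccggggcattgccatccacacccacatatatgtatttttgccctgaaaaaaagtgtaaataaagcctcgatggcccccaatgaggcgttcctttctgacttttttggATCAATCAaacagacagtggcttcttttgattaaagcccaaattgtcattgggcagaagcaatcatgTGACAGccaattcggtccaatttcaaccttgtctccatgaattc
The Hoxc4, Hoxd8 and Hoxd4 windows each held 1 AGGTCA match, and Hoxd4 also held 1 TATAAA match. The Hoxa2 window held 1 TGATNNAT match and 1 TGACAG match. The promoter table held 24 windows for 22 of the 39 members. AGGTCA was in 6 of these 24 windows, against 14.02% of the 32851 windows of all genes. TGATNNAT was in 4 of 24 against 7.68%, TGACAG in 2 of 24 against 15.9%, and TATAAA in 4 of 24 against 12.4%. The motifs were searched on both strands, and a match describes the letters in the window. The Hox windows had a median GC content of 58.6% against 52.4% for all windows, and a median of 12.5 CpG pairs against 6.

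Hox UMIs (unique molecular identifiers, counts of captured molecules) were a larger part of the embryo sections than of the esophagus. Levels are UMIs per 1000000 UMIs (CPM) over spots with at least 500 UMIs, with exact Poisson 95% intervals that cover counting error only. All members summed to 840.5 CPM (834.8 to 846.2) at E13.5 from 82907 UMIs, and to 426.7 CPM (422.8 to 430.7) at E16.5 from 45163. P0 replicate 1 reached 151.0 CPM (143.5 to 158.7) from 1549 UMIs, and P0 replicate 2 reached 129.8 CPM (121.7 to 138.3) from 955. The intervals of the 4 sections do not overlap. The sections differ in tissue as well as stage, each embryo stage has 1 section, and no test was made between stages. In any of these sums, fewer cells of a type and less RNA per cell cannot be told apart.

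The sections kept 3220 spots at E13.5, 3588 at E16.5, 363 in P0 replicate 1 and 264 in P0 replicate 2, with 7356008 to 105834164 UMIs in all and medians of 25465 to 29289 UMIs per spot. The 3 counts that a count of 0 allows come to 0.0304, 0.0283, 0.292 and 0.408 CPM in that order. The labelled tissue was checked against its markers: all 10 epithelial, all 6 smooth muscle and all 8 striated muscle markers had UMIs in both P0 sections. Striated muscle markers summed to 1109 CPM in P0 replicate 1 and 3430 in P0 replicate 2, and liver markers to 17.8 and 130.6. Barcode positions recur between slides: 24 kept barcodes were common to the P0 sections and 2542 to the embryo sections.

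The P0 esophagus used a short, mostly 3′ set of Hox genes. Paralog numbers 1 to 5 held 86.8% ± 0.43 (SD, n = 2) of its Hox UMIs, numbers 6 to 9 held 12.997% ± 0.61, and numbers 10 to 13 held 0.189% ± 0.18. Numbers 1 to 5 held 46.5% in the E13.5 section and 48.1% in the E16.5 section, where numbers 6 to 9 held 50.03% and 51.6%. Summed by number, the P0 level was highest for paralogs 3 (36.0 ± 1.72 CPM), 2 (32.0 ± 0.41) and 4 (31.8 ± 4.22). It then stepped down over paralogs 5 (17.9 ± 5.93 CPM) and 6 (8.74 ± 4.87), fell to 0.117 ± 0.027 CPM at 7, and stood at 8.20 ± 1.67 at 8. The gap at 7 and the return at 8 were present in both sections: paralog 7 had 1 UMI in each, and paralog 8 had 72 and 69.

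**Figure D1:**
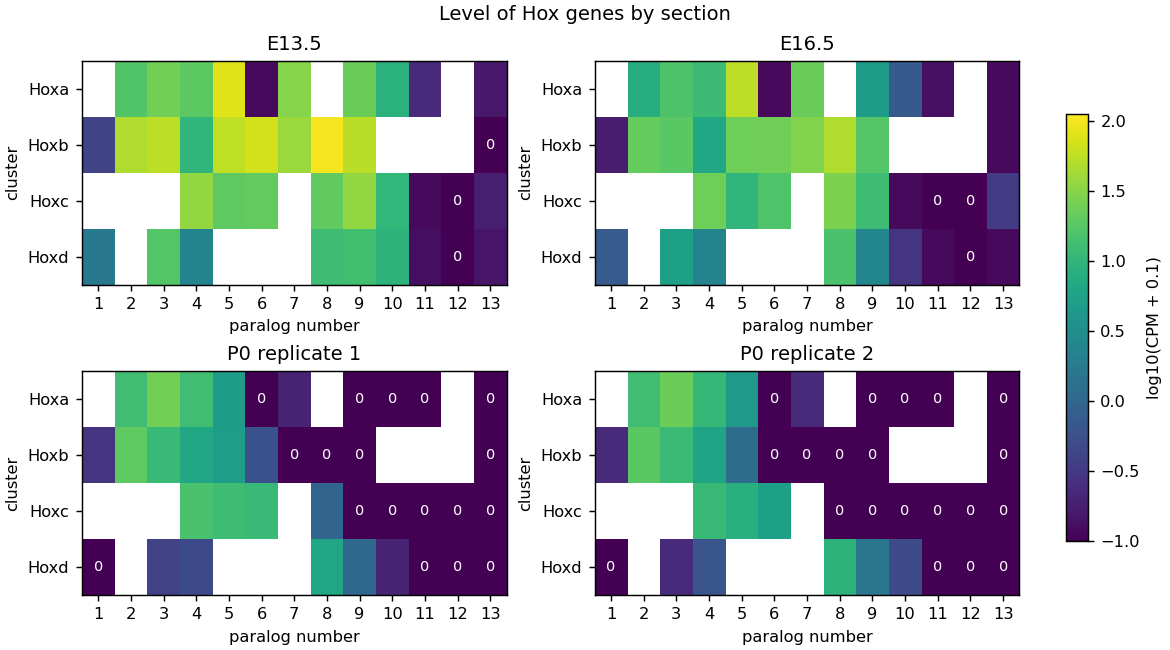
Level of Hox genes as log10(CPM + 0.1) in each section, by cluster (rows) and paralog number (columns). White squares are numbers a cluster does not have or that are not shown, and 0 marks a gene with no UMI. The embryo sections are filled up to paralog 9 or 10, whereas the P0 sections are filled up to paralog 5 or 6, with Hoxd8 apart from the rest.

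Among single genes, Hoxa3, a gene of neck and pharyngeal structures, was highest at P0, at 25.2 CPM in replicate 1 and 22.8 in replicate 2. Hoxb2, known from the hindbrain, followed at 19.5 and 18.6 CPM. Hoxc4 was at 15.01 and 11.7 CPM, Hoxa2 at 12.8 and 13.1, Hoxb3 at 11.7 and 11.8, and Hoxa4 at 12.8 and 10.6. The last of the 8 highest were Hoxc5 at 12.6 and 8.43 CPM and Hoxc6 at 11.7 and 5.30. Counted molecules do not scale with gene length here, but capture can differ between genes, so the order describes UMIs. Neighbours in this order had overlapping intervals in both sections, except that Hoxb2 lay above Hoxc4 in replicate 2, and Hoxa3 stood above Hoxc4 and every gene below it in both.

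A second tier held Hoxd8, at 6.14 CPM in replicate 1 and 9.38 in replicate 2, and Hoxb4, at 6.63 and 5.98. Hoxa5, a gene needed for normal lung and airway development, was at 4.58 and 4.21 CPM. Hoxb5 was the least even of these, with 51 UMIs (4.97 CPM) in replicate 1 and 8 UMIs (1.09 CPM) in replicate 2. Hoxc6 also differed between the sections beyond its counting intervals, at 9.70 to 13.98 CPM against 3.77 to 7.25. Hoxd9, the highest paralog 9 member, had 10 and 11 UMIs. Hoxa7, Hoxb1, Hoxb6, Hoxc8, Hoxd3, Hoxd4 and Hoxd10 had 0 to 9 UMIs in each section.

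The other 18 members had no UMI in either P0 section. These are Hoxa6, Hoxa9, Hoxa10, Hoxa11, Hoxa13, Hoxb7, Hoxb8, Hoxb9, Hoxb13, Hoxc9, Hoxc10, Hoxc11, Hoxc12, Hoxc13, Hoxd1, Hoxd11, Hoxd12 and Hoxd13. Hoxb6 and Hoxc8 had none in P0 replicate 2 alone. Hoxb8, a trunk gene and the highest member at E13.5 (100.7 CPM), was thus at least 247-fold higher there than the 3-count floor of P0 replicate 2, and at least 118.5-fold higher at E16.5. Hoxb9 was at least 133.4-fold higher at E13.5, Hoxb7 at least 96.2-fold and Hoxc9 at least 87.5-fold. The absence was not one of a whole cluster: Hoxb2 to Hoxb5 had UMIs in the same sections, as had Hoxc4 to Hoxc6. By cluster, Hoxa held 40.8% ± 2.0 of P0 Hox UMIs (SD, n = 2), Hoxb 28.9% ± 0.15, Hoxc 23.1% ± 5.0 and Hoxd 7.22% ± 2.8.

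Within the P0 esophagus, epithelium-rich spots were compared with muscle-rich spots, the wall layers that the study's title names. In each section the highest 25% of spots by epithelial markers (91 and 66 spots) and by smooth plus striated muscle markers (also 91 and 66) were summed. The counts were fitted with edgeR's quasi-likelihood test over 12689 genes, keeping each section as a block, and p-values were adjusted by Benjamini-Hochberg and called under 0.05. The layers differ widely, and 56.0% of all tested genes passed, 26.6% as higher in epithelium-rich and 29.4% as higher in muscle-rich spots. Scaling by library totals in place of TMM factors moved the median log2 fold change of all genes from −0.04 to −0.31 and this split from 3381 and 3728 genes to 2403 and 5088. Of the 39 members, 13 passed the filter on low counts and were tested. Of these, 3 were higher in epithelium-rich spots, 6 were higher in muscle-rich spots and 4 were not called, so the share called lies near that of all genes. Their median log2 fold change was −0.83, against −0.04 over all genes tested.

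The 3 members higher in epithelium-rich spots were the 3 Hoxc genes tested, Hoxc4, Hoxc5 and Hoxc6, which lie next to each other on chromosome 15. Hoxc6 was at 15.4 CPM in epithelium-rich and 5.05 in muscle-rich spots of replicate 1, and at 6.95 and 0.639 CPM in replicate 2. The groups do not overlap, although the epithelium-rich value of replicate 2 is well below that of replicate 1. Its log2 fold change was 2.17 ± 0.42 (SE, adjusted p = 1.84e-04, edgeR). Hoxc5 was at 12.95 and 10.4 CPM in epithelium-rich spots and at 6.57 and 4.47 in muscle-rich spots of the 2 sections, with no overlap (log2 1.33 ± 0.34, edgeR adjusted p = 0.00272). Hoxc4 was at 16.2 and 13.9 CPM against 8.59 and 7.66, again with no overlap (log2 1.15 ± 0.29, edgeR adjusted p = 0.00243). With DESeq2's Wald test on the same sums, the adjusted p was 0.0617 for Hoxc4 and 0.0562 for Hoxc5, and Hoxc6 alone was called on this side. With striated muscle markers alone defining the muscle-rich spots, Hoxc5 fell to a log2 fold change of 0.62 (edgeR adjusted p = 0.152).

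Hoxd8, at chr2:74704615-74707933 (GRCm38.p6), was the member most tilted to muscle-rich spots. It had 5 and 4 UMIs in the epithelium-rich spots of replicates 1 and 2 (1.35 and 1.39 CPM), and 39 and 42 UMIs in the muscle-rich spots (19.7 and 26.8 CPM). Both muscle-rich values are over 10 times both epithelium-rich values. The log2 fold change was −3.77 ± 0.39 (SE, adjusted p = 8.16e-08, edgeR), and every alternative setting with a test kept it past the threshold. Hoxd9, its neighbour, had 0 UMIs in the epithelium-rich spots of both sections and 5 in the muscle-rich spots of each. Hoxd9 did not pass the filter on low counts. Hoxd4, which lies within the Hoxd3 gene model on the 3′ side of Hoxd8, had 4 UMIs in each whole section.

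Hoxb2 was at 8.90 and 12.2 CPM in epithelium-rich spots and at 39.4 and 27.5 in muscle-rich spots. The muscle-rich values lie above both epithelium-rich values (log2 −1.45 ± 0.24, edgeR adjusted p = 2.94e-05). Hoxa4 was at 9.71 and 6.25 CPM against 23.2 and 19.8, also without overlap (log2 −1.15 ± 0.27, edgeR adjusted p = 0.00103). Hoxb5, a gene of foregut mesenchyme, had 3 and 1 UMIs in epithelium-rich spots against 15 and 7 in muscle-rich spots (log2 −3.06 ± 0.88, edgeR adjusted p = 0.00577). The spots of neither region held 33 Hoxb5 UMIs in replicate 1 and 0 in replicate 2. The call rests on few counts, and without the section as a block the adjusted p was 0.057. Hoxb3 (log2 −0.96 ± 0.33, edgeR adjusted p = 0.0194) and Hoxa2 (log2 −0.89 ± 0.29, edgeR adjusted p = 0.0133) complete the 6. In DESeq2's Wald test their adjusted p were 0.154 and 0.147. For the highest 15% of spots, the adjusted p was 0.123 for Hoxa4 and 0.0994 for Hoxb3. With striated muscle markers alone it was 0.113 for Hoxa4 and 0.0874 for Hoxa2, and Hoxb5 was not tested.

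Among the 4 members not called were Hoxa3 (log2 −0.30 ± 0.19), Hoxa5 (−0.69 ± 0.47) and Hoxb4 (−0.83 ± 0.44). Hoxa3, the highest member at P0, was at 21.0 and 17.0 CPM in epithelium-rich spots and 29.3 and 26.8 in muscle-rich spots. With library totals in place of TMM factors, Hoxa3 (log2 −0.57, edgeR adjusted p = 0.0203) and Hoxb4 (−1.10, edgeR adjusted p = 0.0423) also passed. Without replicate 1 Hoxb4 turned to 0.12, and with striated muscle markers alone Hoxa5 turned to 0.07. Muscle-rich spots also held other cells: fibroblast markers summed to 14193 and 12371 CPM there against 2947 and 2819, and enteric nerve and glia markers to 429.3 and 366.6 against 21.8 and 7.64. Striated muscle markers summed to 4783 and 14181 CPM in the muscle-rich spots of replicates 1 and 2, and liver markers to 51.5 and 219.1. Their part in these differences was not tested. On data simulated at the common dispersion of this fit, 61.2% of genes changed by 1 log2 unit and 95.8% of those changed by 2 were recovered. The changed genes were drawn from all genes, without a section effect, so these rates are not those of the Hox members.

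**Figure D2:**
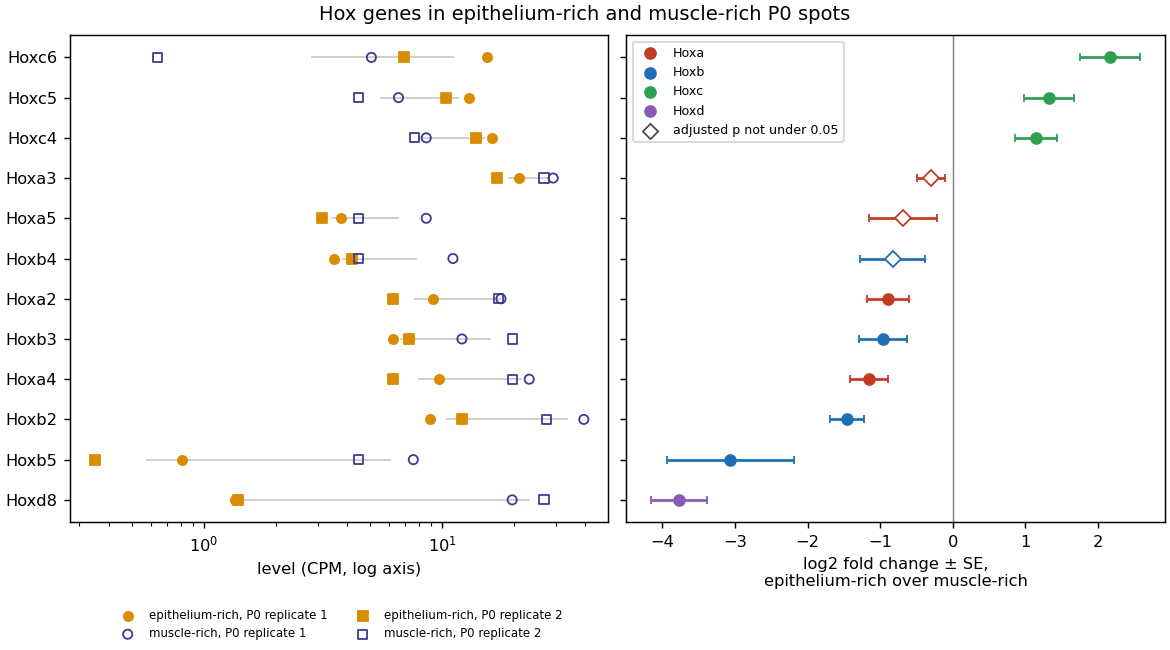
Left, the CPM (log axis) of 12 of the 13 tested members in epithelium-rich (filled) and muscle-rich (open) spots of P0 replicates 1 (circles) and 2 (squares), with grey lines joining the group means. Right, the log2 fold change with its SE. The 3 Hoxc genes lie to the right of 0 without overlap between regions, and Hoxd8 and Hoxb5 lie farthest to the left.

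The 2 kinds of muscle were also set against each other, in a comparison added after the data were seen. Spots high in smooth muscle markers alone (69 and 47 spots) and in striated muscle markers alone (also 69 and 47) were fitted in the same way over 11689 genes. The 22 and 19 spots high for both lists were left out. The percentages that follow are of the genes tested. In this fit 19.6% passed, 8.16% as higher in smooth-rich and 11.5% in striated-rich spots. Of 10 members tested, 1 was called on each side. Hoxb2 was at 44.6 and 39.5 CPM in smooth-rich and 21.8 and 19.3 in striated-rich spots, with no overlap (log2 0.89 ± 0.25, edgeR adjusted p = 0.0332). Hoxc5 was at 5.58 and 3.38 CPM in smooth-rich and 14.4 and 7.01 in striated-rich spots (log2 −1.41 ± 0.44, edgeR adjusted p = 0.0488). Epithelial markers summed to 11355 and 8433 CPM in the striated-rich spots, against 2494 and 3401 in the smooth-rich ones. Their part in the Hoxc5 difference was not tested. Hoxd8 was at 9.77 and 12.4 CPM in smooth-rich and 11.7 and 20.2 in striated-rich spots and was not called (log2 −0.61 ± 0.37, edgeR adjusted p = 0.289).

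The balance of clusters gave the same picture as shares of Hox UMIs, with exact Clopper-Pearson 95% intervals for counting error. Hoxc genes held 39.3% (34.6 to 44.2) and 33.2% (27.6 to 39.2) of Hox UMIs in the epithelium-rich spots of P0 replicates 1 and 2, and 10.3% (7.51 to 13.7) and 7.49% (4.64 to 11.3) in the muscle-rich spots. Hoxd genes held 1.18% and 1.85% in epithelium-rich and 12.3% and 17.98% in muscle-rich spots. The embryo spots are the highest 2% for each marker list. At E13.5 Hoxc genes held 21.7% (15.6 to 28.9) in epithelium-rich and 7.89% (5.85 to 10.3) in smooth-muscle-rich spots, and these intervals do not overlap. Their levels were 38.1 and 26.2 CPM, a ratio of 1.46 with an exact 95% interval of 0.91 to 2.3, which includes 1. Hoxa genes were at 71.9 against 162.6 CPM and Hoxb genes at 53.35 against 127.5. At E16.5 the Hoxc shares were 16.2% (11.4 to 22.1) and 15.1% (11.1 to 19.9), and these intervals overlap. Hoxd genes held 6.83% (3.46 to 11.9) in epithelium-rich and 4.70% (3.14 to 6.72) in smooth-muscle-rich spots at E13.5. At E16.5 they held 14.2% (9.66 to 19.9) and 11.15% (7.70 to 15.45), and the intervals overlap at both stages. In striated-muscle-rich spots they held 15.6% (12.3 to 19.4) at E13.5 and 11.7% (8.44 to 15.7) at E16.5. The embryo spots can come from any organ with such cells. Each embryo section is 1 sample, and no test was made of these shares.

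**Figure D3:**
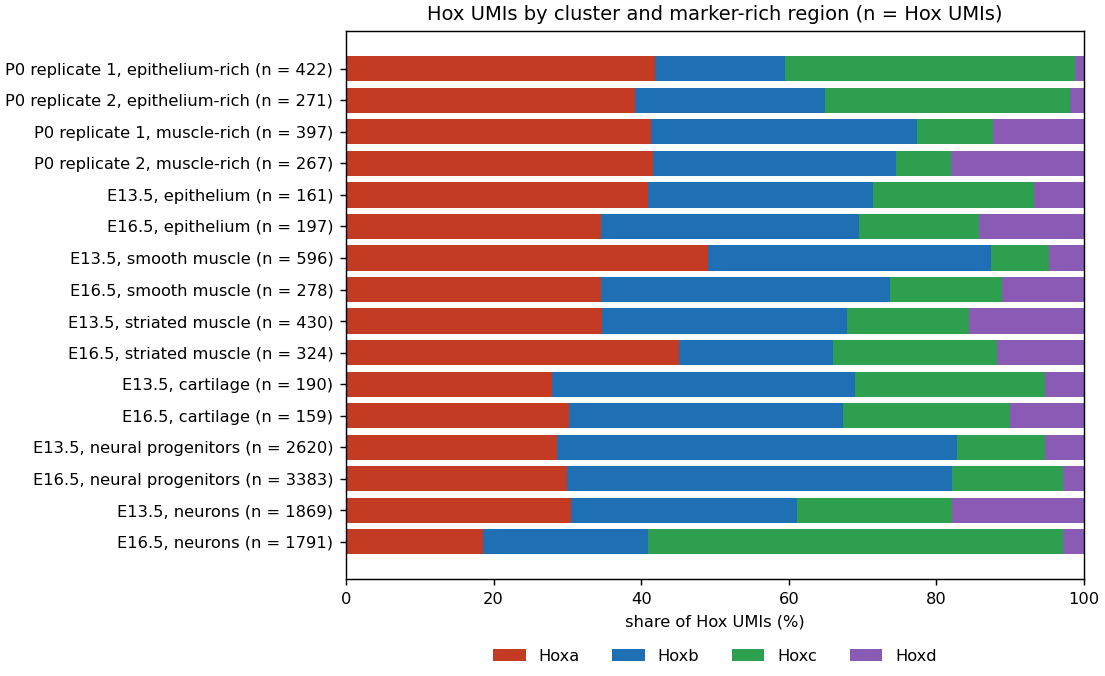
Share of Hox UMIs (%) from each cluster in marker-rich spots, with n the number of Hox UMIs. The Hoxc part is 39.3% and 33.2% in epithelium-rich P0 spots against 10.3% and 7.49% in muscle-rich ones, and is largest in E16.5 neuron-rich spots, at 56.3%.

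Each P0 section lay as 3 separate tissue pieces, which held 359 of 363 spots in replicate 1 and 244 of 264 in replicate 2. Hoxd8 was uneven along them. Each piece was divided at its middle column. In replicate 1 the sides with lower and higher column numbers held 20 and 6 Hoxd8 UMIs in piece 1, 22 and 6 in piece 2 and 4 and 5 in piece 3. In replicate 2 they held 27 and 7, 5 and 3, and 19 and 8. The lower-column side thus had more Hoxd8 UMIs in 5 of 6 pieces, and no test was made. Muscle markers were uneven as well, though not in the same 5 pieces. Striated muscle markers were also higher on the lower-column side in 5 of 6 pieces, at 2108 against 265 CPM in piece 1 of replicate 1, 2444 against 131 in its piece 2 and 8691 against 1729 in piece 3 of replicate 2. In piece 1 of replicate 2 they were lower there, at 451 against 4192 CPM, and smooth muscle markers were higher, at 13783 against 5251 CPM. In piece 3 of replicate 1, where Hoxd8 was not higher, striated (220 against 113 CPM) and smooth muscle markers (14503 against 7780) were higher there. Smooth muscle markers were lower there in pieces 1 (2936 against 4796 CPM) and 2 (7600.5 against 8086.3) of replicate 1. They were higher there in every piece of replicate 2. The part of muscle content in the Hoxd8 difference was not tested. Liver markers reached 409.7 CPM on the side with 27 Hoxd8 UMIs, and 9.24 to 181.5 CPM on the other sides. Hoxb5 ran from 1.72 CPM in piece 1 of replicate 1 to 5.38 and 11.2 CPM in pieces 2 and 3. It stood at 1.92, 0.641 and 0.677 CPM in the pieces of replicate 2. The sources used here do not give which end of a piece is toward the mouth.

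Genes that work with or on Hox genes were counted in the same P0 fit of epithelium-rich against muscle-rich spots, in which 56.0% of all tested genes passed. Of the Pbx, Meis and Prep cofactors, 8 of 9 were tested, 0 were higher in epithelium-rich and 2 in muscle-rich spots: Pknox2 (log2 −2.02 ± 0.44, edgeR adjusted p = 6.86e-04) and Meis1 (−1.42 ± 0.15, edgeR adjusted p = 7.42e-08). Of 13 retinoic acid genes, 10 were tested, 6 were higher in epithelium-rich and 3 in muscle-rich spots. The highest ratio was that of Cyp26a1, which breaks retinoic acid down (log2 2.56 ± 0.28), followed by the receptor Rarg (1.69 ± 0.17). The lowest were the synthesis genes Aldh1a1 (−1.87 ± 0.27) and Aldh1a2 (−1.23 ± 0.14). The largest edgeR adjusted p of these 4 was 6.89e-06. Other synthesis genes were higher in epithelium-rich spots, Rdh10 (log2 1.27 ± 0.24, edgeR adjusted p = 1.69e-04) and Aldh1a3 (1.10 ± 0.22, edgeR adjusted p = 3.30e-04), which were named after their values were seen.

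Of 14 Polycomb genes all were tested, and 1 was higher on each side, with Rnf2 higher in muscle-rich spots (log2 −0.66 ± 0.17, edgeR adjusted p = 0.00308). Of 4 Trithorax-group and other Hox activators, 1 was called, Ash1l (log2 0.47 ± 0.16, edgeR adjusted p = 0.0168). Gdf11, the 1 gene tested of 4 in the caudal list, was higher in muscle-rich spots (−1.69 ± 0.55, edgeR adjusted p = 0.0129). The even-skipped neighbours Evx1 and Evx2 had no UMI at P0.

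Of 11 RNAs transcribed from the Hox clusters, 6 were tested and all were called, 3 on each side, in a fit that called 56.0% of all genes. Halr1, an RNA from beside the Hoxa cluster, was at 13.7 and 9.79 CPM in the whole P0 sections and had a log2 fold change of 3.71 ± 0.44 (edgeR adjusted p = 4.84e-07). Hoxaas3 followed, at 1.15 ± 0.28 (edgeR adjusted p = 0.00162). Hoxd3os1, which overlaps the Hoxd3 model, went the other way (−3.51 ± 0.55, edgeR adjusted p = 1.87e-05), as did Hoxb3os (−1.16 ± 0.35, edgeR adjusted p = 0.00917). Hotairm1 was the most abundant, at 84.3 and 88.4 CPM in the whole sections. The sources used here do not give whether the counting used strand, so reads of overlapping and antisense genes may not be told apart. By the RefSeq gene models, 20 of 39 members overlap another gene and 10 overlap another Hox gene. Hoxa4, Hoxa5 and Hoxa6 lie within the long Hoxa3 model, Hoxb4 within Hoxb3, and Hoxd4 within Hoxd3. Hoxb5 and Hoxb6 lie within the model of the RNA Hoxb5os, which had 26 and 4 UMIs in P0 replicates 1 and 2. The division of reads among these genes is uncertain.

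In the E13.5 section Hox levels stayed well above 0 up to paralog 10, which summed to 28.4 CPM. At E16.5 they did so up to paralog 9 (36.4 CPM), and paralog 10 summed to 0.841 CPM, 0.197% of Hox UMIs. The 8 highest members at E13.5 were Hoxb8 (100.7 CPM), Hoxa5 (80.0), Hoxb6 (69.2), Hoxb5 (57.8), Hoxb3 (55.0), Hoxb9 (54.4), Hoxb2 (48.6) and Hoxb7 (39.2), 7 of which are Hoxb genes. At E16.5 they were Hoxa5 (55.2 CPM), Hoxb8 (48.3), Hoxb7 (29.2), Hoxc8 (28.1), Hoxb6 (24.6), Hoxc4 (24.0), Hoxb5 (23.7) and Hoxa7 (22.9). The Hoxb cluster held 51.8% of Hox UMIs at E13.5 and 44.4% at E16.5, where it held 28.9% at P0. The highest paralog 10 member was Hoxc10 at E13.5 (10.3 CPM) and Hoxa10 at E16.5 (0.633 CPM).

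Members with UMIs in both embryo sections had lower levels at E16.5 than at E13.5, except Hoxc8, Hoxd8 and Hoxc13, and the drop was steepest for Hoxc10, Hoxd10 and Hoxa10. Hoxc10 had 1014 UMIs in the E13.5 section and 2 in the E16.5 section. Hoxd10 had 923 and 20. Hoxa9 stood at 23.1 and 4.49 CPM, and Hoxd9 at 13.2 and 2.39. Hoxc8 went the other way, at 20.2 and 28.1 CPM, as did Hoxd8, at 12.5 and 14.8 CPM. Paralogs 11 to 13 were close to 0 in both: Hoxa11 was the highest paralog 11 member with 13 and 4 UMIs, and Hoxc13 the highest paralog 13 member with 8 and 25. Hoxb13, Hoxc12 and Hoxd12 had no UMI at E13.5, and Hoxc11, Hoxc12 and Hoxd12 had none at E16.5. Hoxa6 had 2 UMIs in each section, between far higher neighbours: Hoxa5 had 7896 and 5843 and Hoxa7 had 3114 and 2423. The sections need not cover the same parts of the body.

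Hox levels differed several-fold between marker-rich regions of the embryo sections. Of 18 marker lists, only those that summed to at least 1000 CPM with no marker at 0 in their spots are described, a limit chosen after the data were seen. Spots rich in neural progenitor markers were highest among those lists for the highest 2% of spots, at 1379 CPM (1326 to 1432) at E13.5 and 1318 CPM (1274 to 1363) at E16.5. Hoxa5 led in both, at 275.7 CPM (252.6 to 300.4) and 278.5 CPM (258.5 to 299.7), and these intervals overlap. Of the lists left out, epidermis was higher at E13.5, at 1679 CPM (1616 to 1744), with its markers at 269 CPM in its spots. Spots high for no list stood at 989 CPM at E13.5 and 432 CPM at E16.5. Neuron-rich spots were at 739.6 CPM at E13.5 and 1002 at E16.5; the E13.5 value was 437.2 CPM for the highest 1% of spots and 1205 CPM for the highest 5%. Their codes differed: Hoxb5 (76.4 CPM) and Hoxa5 (72.4) led at E13.5, and Hoxc8 (354.2 CPM) led at E16.5, where Hoxc genes held 56.3% (54.0 to 58.7) of Hox UMIs. Spots rich in enteric nerve and glia markers were at 603.7 and 1029 CPM, the first being 372.5 CPM for the highest 1% of spots. For the highest 5% of E16.5 spots they reached 1433 CPM (1381 to 1487), above the 1189 CPM (1156 to 1223) of neural progenitors. These markers are shared with other glia, and the spots are not limited to the gut.

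Cartilage-rich spots were at 341.4 CPM (294.6 to 393.5) at E13.5 and 373.7 CPM (317.9 to 436.6) at E16.5. Smooth-muscle-rich spots were at 331.8 CPM (305.7 to 359.5) and 209.6 CPM (185.7 to 235.7), and striated-muscle-rich spots at 239.5 and 128.8 CPM. Fibroblast-rich spots were at 373.7 and 233.7 CPM. Epithelium-rich spots were at 175.3 CPM (149.3 to 204.6) and 161.0 CPM (139.3 to 185.1), the first reaching 355.8 CPM for the highest 5% of spots. Heart-rich spots were among the lowest, at 75.1 CPM (61.3 to 91.1) and 48.8 CPM (41.5 to 57.1; 28.4 CPM at E16.5 for the highest 1%), as were liver-rich spots at E13.5 (82.4 CPM) and thymus-rich spots at E16.5 (51.9 CPM). Lung-epithelium-rich spots at E16.5 were at 256.0 CPM, led by Hoxa5 (71.6 CPM) and Hoxb2 (44.3), with Hoxc genes at 3.77% of Hox UMIs. Epidermis-rich spots at E16.5 were at 263.2 CPM, led by Hoxd8 (47.9 CPM) and Hoxd9 (25.4). Sensory-ganglion-rich spots at E13.5 summed to 65.8 CPM, or 262.1 CPM for the highest 5% of spots. Their leading member was Hoxd1, known from sensory neurons of the ganglia, at 25.2 CPM (17.6 to 34.9) against 1.59 CPM in the whole section. At E16.5 such spots summed to 499.6 CPM, with Hoxd1 at 11.1 CPM, or to 330.4 CPM for the highest 1% of spots.

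The smooth-muscle-rich spots of the embryos can be set beside those of P0. At E13.5 they were led by Hoxa5 (48.4 CPM), Hoxb2 (45.1), Hoxa4 (40.6) and Hoxa3 (38.4), and at E16.5 by Hoxb2 (27.1 CPM), Hoxa5 (21.1) and Hoxa3 (20.4). In the smooth-rich P0 spots, chosen by the same marker list but at another share of spots, Hoxb2 was at 44.6 and 39.5 CPM in replicates 1 and 2, Hoxa3 at 30.7 and 44.0, and Hoxa5 at 9.77 and 3.38. Hoxd8 was at 3.34 CPM (6 UMIs) at E13.5 and 12.1 CPM (16 UMIs) at E16.5, and the smooth-rich P0 values of 9.77 and 12.4 CPM lie close to the latter. In the embryo epithelium-rich spots Hoxd8 was at 3.27 CPM (3 UMIs) and 11.4 CPM (14 UMIs). The ratios to smooth-muscle-rich spots were 0.98 (0.16 to 4.58) and 0.95 (0.43 to 2.07). At P0 the ratio of epithelium-rich to smooth-rich spots was 0.138 (0.0389 to 0.406) in replicate 1 and 0.112 (0.026 to 0.378) in replicate 2. The E16.5 interval lay above both P0 intervals. The E13.5 interval overlapped them, so its few UMIs cannot show whether the P0 difference was present. Over the whole E16.5 section Hoxd8 was at 14.8 CPM.

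Within each cluster, the order of the genes over the E13.5 array followed their paralog numbers from 10 down to 5. For each gene with at least 20 UMIs, the mean position of its UMIs along the array columns was taken, less that of all UMIs. Hoxd10 lay at −2.86 mm, Hoxc10 at −2.66, Hoxa10 at −2.45 and Hoxd9 at −2.42 mm. Hoxa9 lay at −1.35 mm, Hoxc9 at −0.81 and Hoxb9 at −0.50 mm. Between clusters the numbers mixed, with Hoxd8 at −0.794 mm and Hoxa7 at −0.510 mm, both lower than Hoxb9 at −0.503 mm. At the other end were Hoxa4 at 1.36 mm, Hoxb5 at 1.25 and Hoxc5 at 1.21 mm. The section spans 6.35 mm in this direction. Spearman's correlation of paralog number with column position was −0.73 over 29 genes, and with row position −0.86. Genes share spots and library, so these values describe 1 section and carry no p. Paralogs 2 and 3 lay between 0.38 and 1.11 mm, within or short of the 0.66 to 1.36 mm of paralogs 4 and 5, so the order did not continue below 4.

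**Figure D4:**
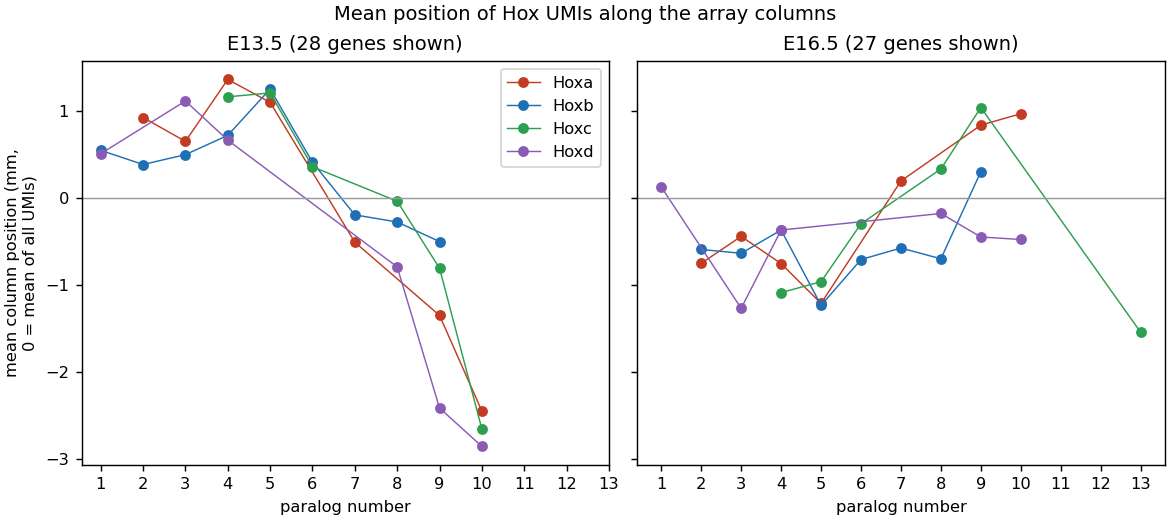
Mean column position (mm, 0 is the mean of all UMIs) of genes with at least 20 UMIs against its paralog number, by cluster, in the E13.5 and E16.5 sections. At E13.5 the 4 clusters descend together from paralog 5 to paralog 10, and at E16.5 Hoxa and Hoxc genes ascend from paralog 5 to paralog 9, from −1.21 and −0.96 mm to 0.84 and 1.04 mm.

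The E16.5 section had a weaker order in all its spots, and a closer one in neural-marker-rich spots. Over 28 genes the correlation with the columns was 0.29 and with the rows −0.32. In the 15% of spots highest for neural progenitor and neuron markers it was 0.73 with the columns and −0.77 with the rows, over 24 genes. The sign of the column value differs from E13.5, and the orientation of each section on its slide is not given. Along a line from spots rich in anterior brain markers to spots rich in lung markers, the correlation over all spots was 0.81 at E13.5 and 0.35 at E16.5, of the same sign. Over the whole sections, the lung list had 1 marker at 0 at E13.5 and the brain list 1 at E16.5. In their highest 2% of spots, brain markers summed to 415.5 CPM at E13.5 and 140.5 at E16.5. Lung markers summed to 243 CPM at E13.5, with 2 at 0. Only the E16.5 lung list, at 19081 CPM, met the limit set for described lists. Hox genes stood at 884.0 and 621.4 CPM in these brain spots, and at 61.3 and 395.5 for the highest 1%. The line is thus not an established head-to-trunk axis. At E13.5 the neural-marker-rich spots gave −0.71 with the columns and −0.92 with the rows, over 28 genes. Cartilage-rich spots gave −0.94 with the columns at E13.5 and 0.46 at E16.5, so that the E13.5 order was not limited to neural tissue. In the P0 sections the correlations were 0.10 over 13 genes and −0.11 over 12. Each P0 section holds pieces laid side by side, and so array position there is not position along the esophagus.

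Along the neural-marker-rich spots of E13.5, in bins of 0.5 mm, the levels of many members peaked in turn, but not those of all. Hoxd8 (52.95 CPM) was highest at 0.5 to 1 mm, and Hoxb8 (216.2) at 6 to 6.5 mm. Hoxd10 (301.2 CPM) and Hoxc10 (226.7) peaked at 0 to 0.5 mm from the low-column edge, Hoxd9 (282.4), Hoxa9 (128.8) and Hoxa10 (107.7) at 0.5 to 1 mm, Hoxc9 (309.2) and Hoxa7 (164.9) at 3 to 3.5 mm, and Hoxc8 (308.3) and Hoxb9 (135.9) at 3.5 to 4 mm. Hoxa5 (419.0 CPM), Hoxb5 (347.3), Hoxb6 (309.9), Hoxc4 (153.5) and Hoxb2 (100.5) peaked at 6 to 6.5 mm. Summed over clusters, paralog 10 fell from 633 CPM in the first bin to 0.0 at 3 to 3.5 mm. The first 5 bins hold 12 to 19 spots each. Hoxb8 rose at 3.5 to 4 mm and again at 6 to 6.5 mm, and paralog 8 fell to 13.1 CPM at 5 to 5.5 mm between them.

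At E16.5 the peaks of many members ran the other way along the columns. Hoxc4 (168.3 CPM) and Hoxc5 (77.7) broke the order, with peaks at 2 to 2.5 mm, beyond those of Hoxb7 and Hoxb8. Hoxa5 (352.6 CPM) and Hoxb5 (123.1) peaked at 1 to 1.5 mm, Hoxb8 (399.5) and Hoxb7 (190.6) at 1.5 to 2 mm, Hoxc6 (232.4) and Hoxa7 (169.4) at 2.5 to 3 mm, and Hoxc8 (756.8) at 3 to 3.5 mm. Hoxb9 (194.9 CPM) followed at 3.5 to 4 mm, Hoxc9 (159.8) at 4 to 4.5 mm and Hoxa9 (39.7) at 5 to 5.5 mm. In both sections Hoxa5 and Hoxb5 peaked in the same bin, and Hoxa9, Hoxb9 and Hoxc9 peaked 2.5 mm or more from it. Paralogs need not share a peak: the highest bins of Hoxb8 and Hoxc8 lay 1.5 mm or more apart in both sections, although at E13.5 Hoxb8 had a lower rise (167.1 CPM) in the highest bin of Hoxc8.

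**Figure D5:**
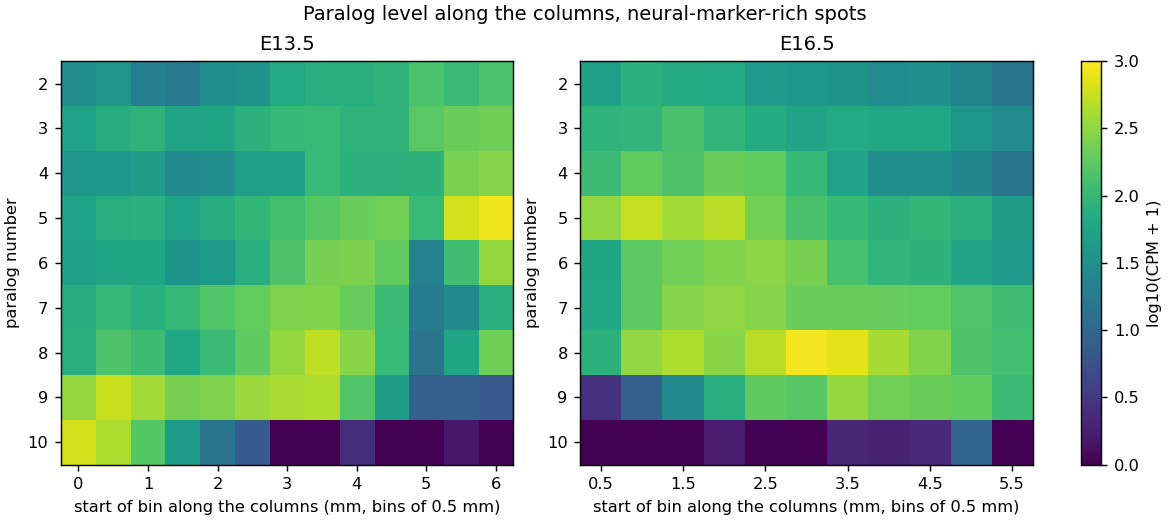
Level of paralog numbers 2 to 10, summed over clusters, as log10(CPM + 1) in 0.5 mm bins along the array columns of neural-marker-rich spots; bins with under 10 spots are left out. At E13.5 paralog 10 is brightest at the low-column edge and paralog 5 at the high-column edge, and at E16.5 paralog 5 is brightest near 1 mm and paralog 8 near 3 mm.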

How the data were processed

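The 39 members and the gene lists were chosen with earlier results of these data known. The authors deposited raw UMI counts per gene and spot with spot positions, made with Space Ranger 2.0.0 per the file headers and against mm10 per the submitters' processing notes; the chemistry and annotation are not given in the sources used here. Spots with at least 500 UMIs were kept. Levels are CPM. Marker-rich spots had the highest mean log(1 + UMIs per 10000) over a list, 25% for P0 and 2% for each embryo, without spots high for several lists. Counts of 3 regions in 2 P0 sections (6 sums) were fitted with edgeR 4.0.16 (TMM, filterByExpr, region and section, markers left out), tested on simulated data. The section is a block because regions of a section share a library. DESeq2 1.42.0 was an alternative. Genes named were the 8 highest at P0 and in each embryo section, the highest of each paralog number, all called members, members with 0 UMIs, and for cofactor lists the 2 largest and 2 smallest called changes; some genes under this rule are not reported here. Hotairm1 and genes described by region or position were named after their values were seen. Of the 39 members, 39 matched RefSeq symbols (GRCm38.p6) and 17 had no promoter window.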

Additional observations from a re-analysis of the deposited data

How the results depend on the processing

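Of the alternative log2 fold changes of the 13 tested members that had a test, 115 kept their direction and side of the threshold, 10 lost the call, 3 gained it and 1 turned sign. With a section left out there was no test, and 25 values kept their direction and 1 turned sign. The number of members higher in epithelium-rich spots was 3, and 1 with DESeq2's Wald test. That test called 2280 and 2438 of all genes in the 2 directions, against 3381 and 3728. The number higher in muscle-rich spots was 6, and 3 with striated muscle markers alone. Hoxa5 turned to 0.0738 with striated markers alone, and Hoxb4 ranged from −1.29 without P0 replicate 2 to 0.119 without P0 replicate 1. With no replicate block 3 and 5 members were called: Hoxb5 was not called (edgeR adjusted p = 0.057), and no other member's call changed. Library totals in place of TMM factors, an alternative chosen after seeing the data, added Hoxa3 (−0.57) and Hoxb4 (−1.10) to the muscle-rich side; the smooth muscle markers alone added Hoxb4 (−1.12). Without the filter on low counts, Hoxd9 was called as higher in muscle-rich spots (−5.93, edgeR adjusted p = 0.00589), a size that depends on the prior count. The share of paralogs 1 to 5 at P0 was 86.5% to 87.1% with either section left out. Without mitochondrial and globin genes in the total, the Hox level was 890.0 CPM at E13.5 and 471 CPM at E16.5. With the highest 1% of spots, neural-progenitor-rich spots held 1209 and 1244 CPM and E13.5 smooth-muscle-rich spots 302 CPM. With the highest 5%, neural-progenitor-rich spots held 1585 and 1189 CPM, and with spots kept in each list, those of E16.5 held 1240 CPM. The correlation of paralog number with column was −0.94 in E13.5 cartilage-rich spots, and at E16.5 it was 0.725 in neural-rich, 0.464 in cartilage-rich and 0.159 without neural-rich spots. The causes of these changes were not tested. Few Hox UMIs in the P0 regions and 2 sections limit what could be called there; 26 members were not tested.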
